A study of Mus musculus with 104 samples.

Results

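Mouse cells of the line TC1-GFP, from a series on blastomere-like stem cells, were sampled over 96 h in a medium called NTF, and bulk RNA-seq counts of the late hours were set against those of the early hours. The late group was the 3 libraries taken at 48, 72 and 96 h, and the early group the 3 libraries taken at 0, 4 and 10 h, which makes 6 of the 104 libraries of the series. A library taken at 24 h is shown beside them and left out of the test, since it detected the fewest genes of the course. The labels give all 7 libraries the cell type mESC (mouse embryonic stem cell), the genotype WT and culture in NTF medium, the 0 h library included, and they do not spell out the name NTF. For a comparison between media, 3 late libraries (48, 72 and 96 h) and 3 early libraries (0, 4 and 12 h) of the same line in a medium called SFH were used, whose titles write d where their time labels write h. The deposited counts of both courses are titled as differentiation of mTBLC, taken here to mean the blastomere-like cells of the series. Each hour has 1 library, the labels do not say whether hours came from separate cultures, and the spread within a group therefore holds change over time as well as technical variation.

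Embryonic stem cells correspond to the naive epiblast of the blastocyst, and a few of them at a time switch on genes of the 2-cell embryo, such as the Zscan4 cluster, which are the hallmark of blastomere-like cultures. In the embryo the naive epiblast passes through a formative state, marked by Fgf5 and the de novo DNA methyltransferases, before germ layers form. The primitive endoderm, the other derivative of the inner cell mass, gives rise to visceral and parietal endoderm, which absorb and transport nutrients through receptors such as megalin and cubilin. In bulk libraries, fewer cells of a type and less RNA per cell cannot be told apart.

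Counts are as deposited: of those from 1 to 20 in a library 77.1% to 82.2% were even, so that 1 fragment may have been counted as 2, and the number of fragments behind a total or a low count may then be smaller. The late libraries held 32561827 to 36421392 counts, and the early libraries 25466440, 5774059 and 27532296 at 0, 4 and 10 h. The 24 h library held 5099067 and detected 15752 genes, against 17394 to 18297 in the other 6. All 3 late libraries were deeper than all 3 early ones. The dependence of expression on gene length was steeper in the late libraries, with slopes of 2.36 to 2.71 log2 units for each unit of log10 length, against 1.82 to 2.15 in the early ones, and the part of depth and length in the results below was measured only by refitting with the libraries thinned to 1 depth and with the length trend removed. The first principal component of the 7 libraries held 57.6% of their variance and placed the late libraries at 36.9 to 117.0 and the early ones at −91.2 to −54.2, with the 24 h library at −46.9.

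Of 15497 genes tested with edgeR's quasi-likelihood test, 1630 rose and 1580 fell in the late group at a Benjamini-Hochberg adjusted p under 0.05, which is what rose, fell and passed mean below. That is 10.5% of the genes tested higher and 10.2% lower, or 20.7% in either direction, and these shares are the background against which the gene lists are read. All 3 late libraries lay above all 3 early ones in 21.7% of the genes tested and below them in 21.8%, whatever the p. Changes of at least 1 on the log2 scale were found in 1062 of the genes that rose and 1393 of those that fell. The highest of the 7 hours was 96 h for 967 of the genes that rose, 72 h for 468 and 48 h for 194, and the lowest hour of the genes that fell was 96 h for 700 and 72 h for 597. At 24 h the genes that rose by at least 1 had covered a median of 24.2% of the way to their late mean, and those that fell 23.1%, so the 24 h library stood nearer to the early ones. Without the 4 h library 1160 genes passed and without the 72 h library 1073, the lowest counts when each library was left out in turn. Without the 0 h library 1976 passed and without the 10 h library 1853, and a straight trend in log2 of hours plus 1 over the 6 libraries called 633.

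**Figure D1:**
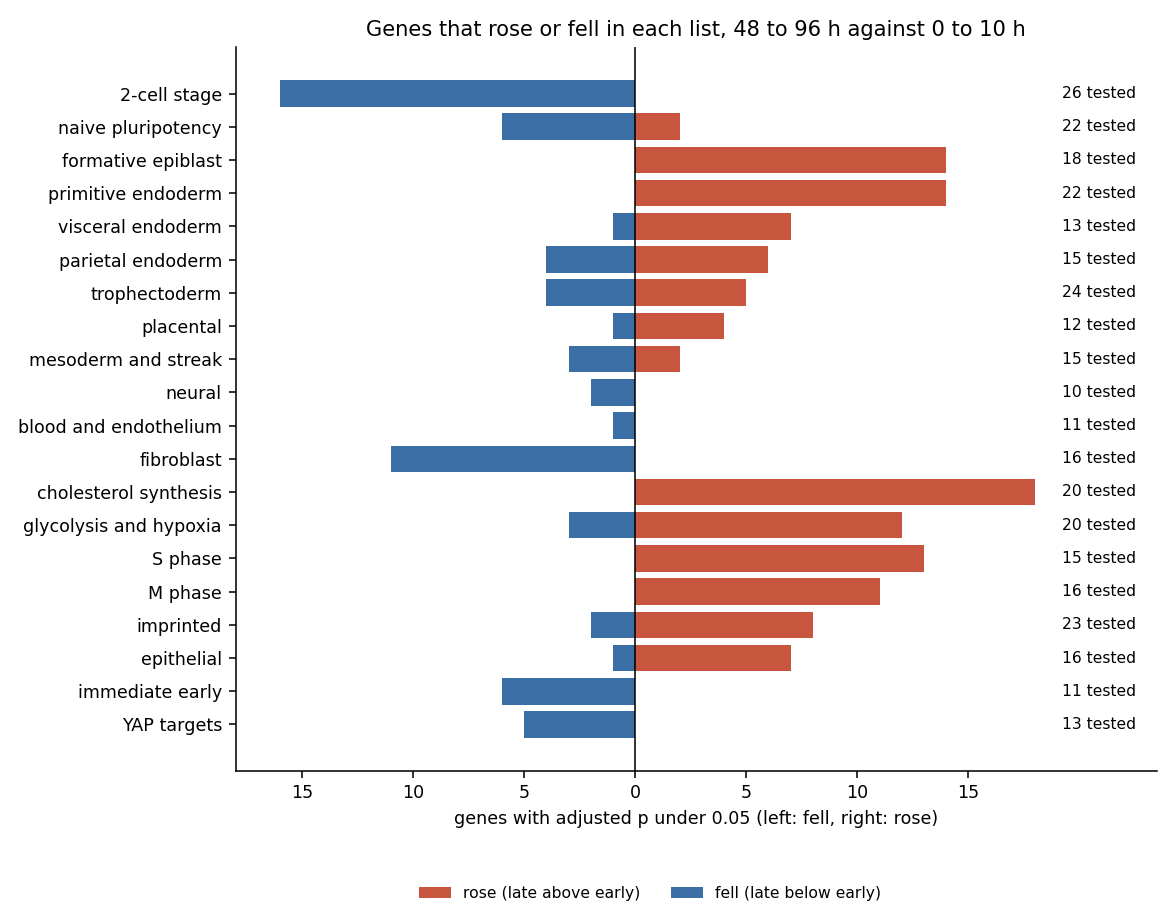
Members of 20 of the gene lists that rose (bars to the right of 0) or fell (bars to the left) in the 48, 72 and 96 h libraries against the 0, 4 and 10 h libraries. The horizontal axis counts genes with an adjusted p under 0.05, and the number tested stands at the right. The longest bars to the right are cholesterol synthesis (18 of 20), formative epiblast (14 of 18) and primitive endoderm (14 of 22), and the longest to the left are 2-cell stage (16 of 26) and fibroblast (11 of 16).

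Genes of the formative epiblast rose in the late group. Of 18 members tested 14 rose, the median log2 change was 3.32 against −0.01 over all genes tested, and in 14 of the 18 all 3 late libraries lay above all 3 early ones. In the fits without each library in turn 12 to 15 members rose, the fewest without the 4 h library. Fgf5, the growth factor that marks this state, read 0.0385, 0, 0.275, 0.756, 16.4, 71.2 and 43.0 CPM, counts scaled by library size to a common total, at 0, 4, 10, 24, 48, 72 and 96 h. It was near 0 through 24 h and high in all 3 late libraries, and its log2 change was 8.23 ± 0.84 (SE, adjusted p = 0.00188). Otx2, a homeodomain regulator of the exit from the naive state, read 10.7, 6.50, 11.5, 16.2, 88.6, 114 and 94.3 CPM in the same order of hours. Its level stepped up between 24 and 48 h and was then steady, with a log2 change of 3.35 ± 0.27 (adjusted p = 0.00179). Pou3f1, a POU factor of the epiblast, read 2.43, 5.88, 9.28, 13.6, 49.6, 217 and 58.0 CPM, highest at 72 h, and rose by 4.20 ± 0.69 on the log2 scale (adjusted p = 0.00724). Otx2 and Pou3f1 were picked after their values were seen.

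Methyltransferases and signalling genes of the same list rose too. Dnmt3a, a de novo DNA methyltransferase, read 34.1, 31.1, 51.9, 47.6, 589, 586 and 232 CPM from 0 to 96 h. Dnmt3b, its paralogue, read 169, 112, 266, 347, 746, 1671 and 910.1 CPM. Both were higher in every late library than in every early one, by 3.58 ± 0.39 and 2.60 ± 0.39 on the log2 scale (adjusted p = 0.00222 and 0.00556). Lef1, which binds DNA with beta-catenin in Wnt signalling, read 0.539, 2.17, 0.825, 0, 41.1, 112 and 13.7 CPM. Its peak was at 72 h, with the 96 h value the lowest of the late group, and it had a log2 change of 5.80 ± 0.86 (adjusted p = 0.00546). Fgf15, a secreted FGF, rose by 4.90 ± 0.77 (adjusted p = 0.00619) and Zic5, a zinc-finger factor of the epiblast, by 4.43 ± 0.69 (adjusted p = 0.00602). Of the 14 genes that rose 10 were highest at 72 h, 2 at 48 h and 2 at 96 h.

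General pluripotency genes did not move as a block. Pou5f1, which encodes the core factor Oct4, read 1322, 968, 1196, 1239, 1411, 1079 and 838 CPM from 0 to 96 h, and its late and early values overlapped (log2 change −0.07 ± 0.23, adjusted p = 0.856). Sox2, its partner, read 560.0, 314, 359.9, 321, 312, 262 and 54.5 CPM and did not pass (−0.97 ± 0.52, adjusted p = 0.207). Its lowest value was at 96 h, and its 48 h value was just below the lowest early one. Of 22 members of the naive pluripotency list 6 fell and 2 rose, with a median log2 change of −1.29. Nanog, a homeodomain factor of the naive state, read 450.4, 362, 604, 385, 201, 108 and 257 CPM. All 3 late values were below all 3 early ones, and the log2 change was −1.33 ± 0.32 (adjusted p = 0.0222). Tfcp2l1 (−2.45 ± 0.73), Klf4 (−2.11 ± 0.53), Tbx3 (−1.94 ± 0.49) and Klf5 (−1.40 ± 0.39), all transcription factors of the naive network, also fell, with adjusted p of 0.0250 to 0.0422. Zfp42, a marker of naive cells, read 776, 613, 728, 514, 457, 156 and 36.8 CPM and missed the threshold at −1.70 ± 0.68 (adjusted p = 0.101). All its late values lay below its early ones, but they were far apart.

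The 2 members that rose were Lin28a and Trim71, genes of the let-7 and translation control circuit of the early embryo. Lin28a, an RNA-binding protein, read 38.5, 22.1, 59.5, 74.8, 298, 558 and 490.0 CPM from 0 to 96 h and rose by 3.47 ± 0.39 on the log2 scale (adjusted p = 0.00233). Trim71 rose by 0.89 ± 0.23 (adjusted p = 0.0290). The falls of this list rested on few libraries: 1 member fell without the 0 h or the 72 h library, 2 without the 4 h or the 10 h library, and 13 without the 48 h library. Nanog did not pass without 0, 10 or 72 h (adjusted p up to 0.0681), and Klf4, Klf5, Tbx3, Tfcp2l1 and Trim71 each lost their call without 3 to 5 of the 6 libraries, with adjusted p up to 0.128. Zfp42 passed without the 48 h library (adjusted p = 0.00317), where the log2 change of Tfcp2l1 was −3.87.

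**Figure D2:**
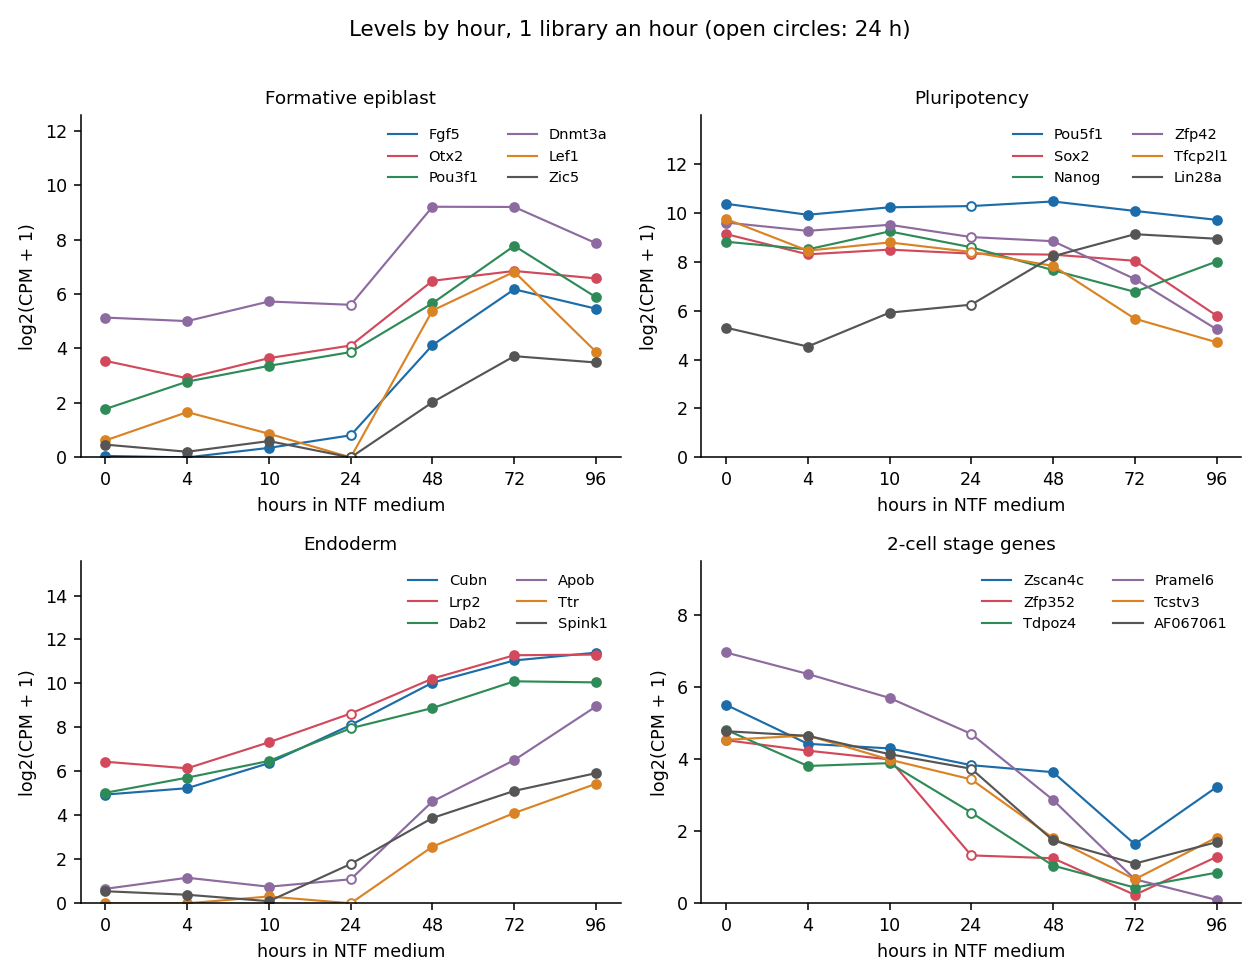
Level of 24 genes at 0, 4, 10, 24, 48, 72 and 96 h in NTF medium, 1 library an hour, as log2 of CPM plus 1, with the hours evenly spaced on the axis and the 24 h library as open circles. Formative and endoderm genes lie high at 48, 72 and 96 h, 2-cell stage genes lie low there, and Pou5f1 stays between 838.3 and 1411 CPM throughout.

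Genes of the 2-cell embryo fell in the late hours. Of 26 members tested 16 fell, the median log2 change was −2.50, and in 23 of the 26 every late library was below every early one. Zscan4c, of the cluster that marks 2-cell-like cells, read 44.4, 20.4, 18.6, 13.2, 11.4, 2.11 and 8.33 CPM from 0 to 96 h. It was lowest at 72 h and partly back at 96 h, with a log2 change of −1.94 ± 0.59 (adjusted p = 0.0465). Zscan4a, Zscan4b, Zscan4d and Zscan4f, of the same cluster, did not pass (adjusted p = 0.0630 to 0.121), though their late values all lay below their early ones. Zfp352, a zinc-finger gene of the 2-cell embryo, read 22.0, 17.8, 14.9, 1.51, 1.38, 0.176 and 1.44 CPM. At 24 h it was already close to its 48 h level, and it fell by 4.19 ± 0.68 (adjusted p = 0.00681). Tdpoz4, of a family of BTB-domain genes, read 27.1, 13, 13.8, 4.72, 1.06, 0.352 and 0.803 CPM and fell by 4.60 ± 0.55 (adjusted p = 0.00259).

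Further members fell by similar or larger amounts. Pramel6, of a family that opposes DNA methylation in naive cells, read 123, 81.1, 50.8, 24.9, 6.30, 0.587 and 0.0669 CPM, a decrease at every step, and fell by 5.19 ± 1.12 on the log2 scale (adjusted p = 0.0149). Tcstv3 changed by −3.44 ± 0.56 (adjusted p = 0.00696) and AF067061 by −3.54 ± 0.41 (adjusted p = 0.00253), both of them genes of further 2-cell families picked after their values were seen. Of the 16 members that fell 14 had their lowest hour at 72 h and 2 at 96 h. Zscan4, Tdpoz, Usp17l and Pramel genes are families of near-identical copies, so how reads were shared among their members is uncertain. Without the 4 h or the 72 h library 8 members fell, and without the 0 h library 10. Zscan4c passed in the fit without the 48 h library alone (adjusted p up to 0.150 otherwise), and Pramel6 did not pass without 4 or 72 h (adjusted p up to 0.0579), its log2 change being −7.96 without 48 h.

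Transcripts of cholesterol synthesis genes rose almost throughout the list. Of 20 members, which run from acetyl-CoA units to cholesterol with their regulators, 18 rose and the median log2 change was 1.51. The members summed to 2764 to 3943 CPM in the late libraries and to 1176 to 1274 CPM in the early ones, with 1485 CPM at 24 h. Hmgcs1, which makes HMG-CoA at the head of the pathway, read 167, 151, 146, 163, 528, 536 and 511 CPM from 0 to 96 h. The level was flat through 24 h and flat again from 48 h, and it rose by 1.76 ± 0.17 on the log2 scale (adjusted p = 0.00183). Idi1, which isomerises the isoprenoid unit, read 11.8, 12.4, 16.0, 15.3, 68.9, 76.9 and 78.9 CPM and rose by 2.48 ± 0.22 (adjusted p = 0.00183). Insig1, which holds the sterol sensor in the endoplasmic reticulum, rose by 2.04 ± 0.26 (adjusted p = 0.00330). Lss, which closes the sterol rings, rose by 1.97 ± 0.24 (adjusted p = 0.00266).

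Mvk, mevalonate kinase, did not pass with all 6 libraries, at a log2 change of 0.86 ± 0.32 (adjusted p = 0.0801), and passed without the 96 h library (adjusted p = 0.0265). Of the 18 genes that rose 14 peaked at 72 h. When each library was left out in turn 15 to 19 members rose, and thinning the libraries to the depth of the 4 h library left 18.

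The promoters of 3 genes are printed because members of their lists rose together, with the letters searched in capitals. They are the 250 bases before the annotated start, from RefSeq on GRCm38.p6, 5′ to 3′ on the strand of the gene. Hmgcs1 lies on the plus strand of chr13:119690101-119690350, with the sterol element TCACNCCAC and the CCAAT box in capitals on either strand. Idi1 lies on the plus strand of chr13:8885356-8885605, with the CCAAT box in capitals. Bnip3, a hypoxia gene described below, lies on the minus strand of chr7:138909507-138909756, with the core ACGTG of the hypoxia element in capitals.
Hmgcs1: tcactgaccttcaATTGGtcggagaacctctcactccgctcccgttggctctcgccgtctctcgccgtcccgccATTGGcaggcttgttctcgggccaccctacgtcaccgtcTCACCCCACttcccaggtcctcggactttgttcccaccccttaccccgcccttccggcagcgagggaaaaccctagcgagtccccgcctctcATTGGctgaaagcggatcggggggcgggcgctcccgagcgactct
Idi1: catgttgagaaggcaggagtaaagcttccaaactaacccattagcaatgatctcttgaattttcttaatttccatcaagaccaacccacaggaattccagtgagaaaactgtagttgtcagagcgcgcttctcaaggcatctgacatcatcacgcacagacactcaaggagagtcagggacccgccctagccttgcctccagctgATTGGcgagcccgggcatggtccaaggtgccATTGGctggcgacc
Bnip3: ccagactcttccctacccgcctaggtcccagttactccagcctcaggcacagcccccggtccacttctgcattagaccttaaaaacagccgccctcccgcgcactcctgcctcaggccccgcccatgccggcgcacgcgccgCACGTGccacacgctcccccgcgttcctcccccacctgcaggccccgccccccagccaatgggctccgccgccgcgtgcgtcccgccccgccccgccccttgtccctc
The sterol element was found in 1 of the 12 cholesterol promoters that could be matched, that of Hmgcs1, 137 bases before the start, and in 1.22% of 27025 promoters of this length. The CCAAT box was found in all 12, in 3 places in Hmgcs1 and 2 in Idi1, and in 37.5% of all promoters. The core ACGTG was found in 11 of the 19 matched promoters of the glycolysis and hypoxia list, or 57.9%, and in 18.5% of all promoters. Of these 11 genes Car9, Slc2a1 and Vegfa did not pass and Hk2 fell, while the others rose. Among the promoters of genes tested here the shares were 1.32% for the sterol element, 40.5% for the CCAAT box and 24.3% for the core ACGTG. In Bnip3 it lies within the palindrome CACGTG, so that the 2 matches at 107 and 108 bases before the start overlap. The matches are descriptions of these windows.

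Enzymes of glycolysis and genes known as hypoxia targets mostly rose. Of 20 members 12 rose and 3 fell, with a median log2 change of 1.18. Bnip3, a mitochondrial receptor for autophagy, read 5.86, 6.19, 5.12, 7.56, 35.4, 77.9 and 197 CPM from 0 to 96 h. It kept climbing to the last hour and rose by 4.18 ± 0.58 on the log2 scale (adjusted p = 0.00416). Egln3, an oxygen-sensing prolyl hydroxylase, rose by 3.31 ± 0.64 (adjusted p = 0.0106). Tpi1, triose phosphate isomerase, read 107, 103, 116, 129, 204, 486 and 838 CPM and rose by 2.23 ± 0.43 (adjusted p = 0.0103). Pgk1, phosphoglycerate kinase, reached 1206 CPM at 96 h, against 116.9 to 189.1 CPM in the early libraries, and rose by 2.13 ± 0.47 (adjusted p = 0.0166). The 3 that fell were enzymes of the first steps: Hk1 by 1.65 ± 0.31 and Hk2 by 0.73 ± 0.21, both hexokinases, and Pfkp, a phosphofructokinase, by 1.76 ± 0.31 (adjusted p = 0.00878 to 0.0372). Vegfa and Car9, textbook hypoxia targets, did not pass, with log2 changes of −0.23 ± 0.32 and 0.22 ± 0.89 (adjusted p = 0.636 and 0.879). Of the 12 genes that rose 9 were highest at 96 h. Leaving out the 4 h library left 6 members higher, with Egln3, Tpi1 and Pgk1 not passing, Pgk1 also not without 10 h (adjusted p up to 0.0805) and with a log2 change of 1.36 without 96 h, and Hk2 lost its call without each library other than that of 4 h (adjusted p up to 0.109).

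**Figure D3:**
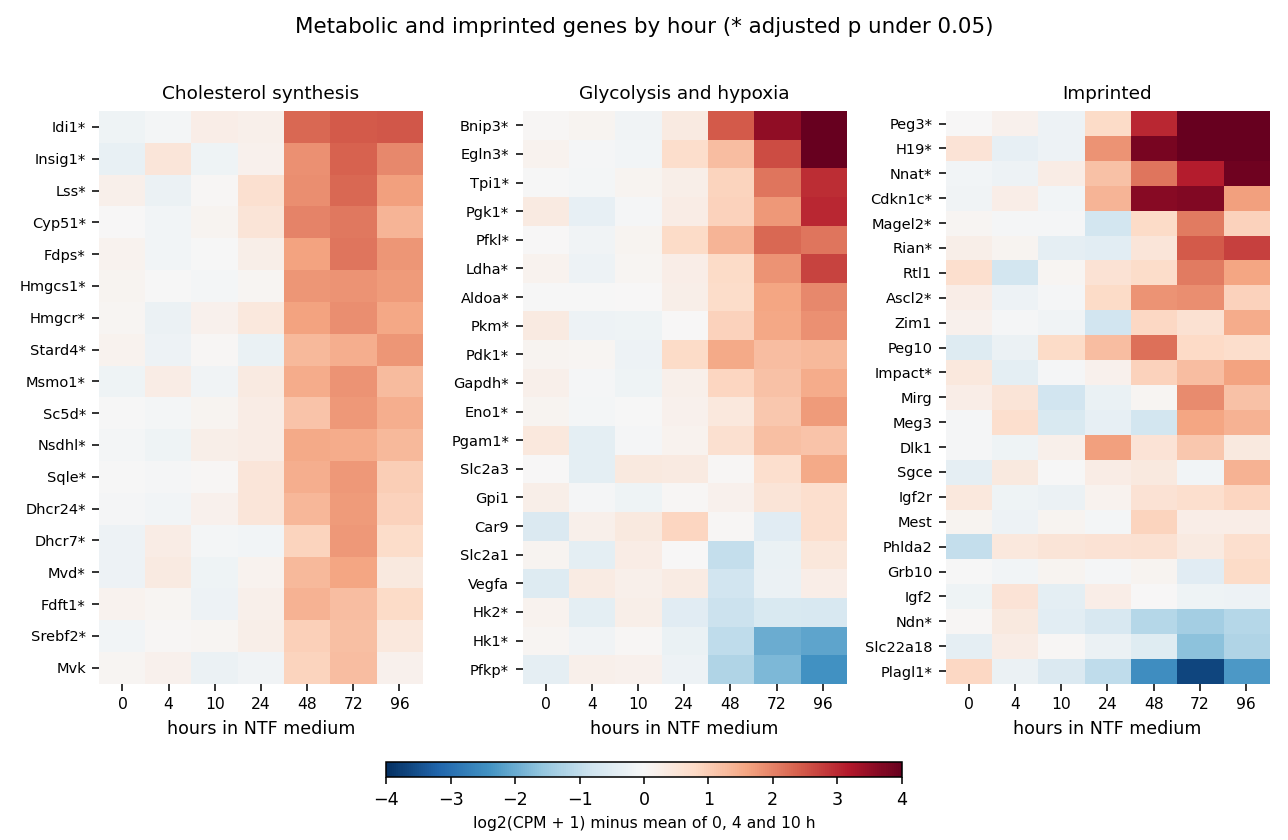
Log2 of CPM plus 1 minus the mean of the 0, 4 and 10 h libraries, for members of the cholesterol synthesis, glycolysis and hypoxia, and imprinted lists at each hour in NTF medium, 1 library an hour. Red is above and blue below the early mean, colours end at 4 in each direction, and an asterisk marks genes that passed. A few members not reported here are left out. Cholesterol genes are reddest at 72 h, and most glycolysis genes at 96 h.

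Genes of the primitive endoderm rose in the late group, and the endocytic receptors led them. Of 22 members 14 rose, with a median log2 change of 0.99. Cubn, which encodes cubilin, read 29.8, 36.7, 82.1, 275, 1049, 2114 and 2704 CPM from 0 to 96 h and rose by 5.30 ± 0.51 on the log2 scale (adjusted p = 0.00183). Lrp2, which encodes megalin, read 85.8, 69.5, 159, 396, 1192, 2493 and 2544 CPM and rose by 4.30 ± 0.42 (adjusted p = 0.00183). Dab2, an adaptor that brings these receptors into the cell, read 31.6, 51.6, 88.0, 249, 471, 1095 and 1059 CPM and rose by 3.94 ± 0.45 (adjusted p = 0.00253). All 3 were above their 0 h level at 10 h and higher again at 24 h. Amn, which encodes the membrane anchor of cubilin, rose by 2.66 ± 0.26 (adjusted p = 0.00183).

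The lineage's transcription factors had smaller log2 changes. Gata4, picked for the comparison of media, read 68.6, 56.7, 73.6, 80.7, 162, 229 and 201 CPM from 0 to 96 h and rose by 1.57 ± 0.20 on the log2 scale (adjusted p = 0.00338). Gata6, a partner of Gata4 and the earliest known regulator of the lineage, read 51.2, 55.4, 45.8, 39.3, 126, 71.3 and 51.7 CPM. It was high at 48 h and back at its early level at 96 h, and did not pass (0.71 ± 0.31, adjusted p = 0.128), though it did without the 96 h library (adjusted p = 0.0387). Sox17, which acts later in the lineage, read 20.0, 23.8, 16.0, 20.4, 24.3, 23.8 and 31.6 CPM and did not pass (0.42 ± 0.26, adjusted p = 0.272). Foxa2, a forkhead factor of endoderm, rose by 1.15 ± 0.32 (adjusted p = 0.0351), a call lost without any library but that of 48 h (adjusted p up to 0.0917). Without the 0 h or the 4 h library 9 members of the list rose.

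Of the visceral endoderm list 13 of 18 members were abundant enough to test, and 7 rose and 1 fell. Apob, the structural protein of lipoproteins, read 0.578, 1.24, 0.688, 1.13, 23.9, 90.4 and 495 CPM from 0 to 96 h and rose by 8.10 ± 1.19 on the log2 scale (adjusted p = 0.00523). Ttr, the thyroxine carrier, read 0, 0, 0.241, 0, 4.98, 16.2 and 42.3 CPM and rose by 7.55 ± 1.15 (adjusted p = 0.00577). Spink1, a secreted trypsin inhibitor, read 0.462, 0.310, 0.0688, 2.46, 13.7, 33.6 and 59.6 CPM and rose by 7.03 ± 0.79 (adjusted p = 0.00233). These 3 were near 0 through 10 h and increased at each late hour. With so few early counts the size of a fitted change rests on single libraries, and that of Ttr was 12.09 without 10 h. Apoa1, the main protein of high-density lipoprotein, rose by 5.09 ± 1.22 (adjusted p = 0.0212). Afp, the classical secreted product of visceral endoderm, read 7.12 CPM at 96 h and at most 2.88 CPM before, and did not pass (1.44 ± 0.98, adjusted p = 0.312). Alb, Cer1, Fgb, Slc2a2 and Apoc2 were below the filter, Alb and Apoc2 with 0 counts through 48 h. The member that fell was Cdx1, a caudal homeobox gene known also as a Wnt target, by 4.29 ± 0.88 (adjusted p = 0.0128). The count of 7 became 4 without the 0 h library and 3 without the 4 h or the 72 h library, Apoa1 losing its call in those fits (adjusted p up to 0.0820) and Cdx1 without 72 h (adjusted p = 0.0555).

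The parietal endoderm list moved in both directions. Of 15 members 6 rose and 4 fell, with a median log2 change of −0.05. Ctsc, a lysosomal protease, and Serpinh1, a collagen chaperone, rose by 1.91 ± 0.35 and 1.39 ± 0.22 on the log2 scale (adjusted p = 0.00922 and 0.00652). Plat, tissue plasminogen activator, rose by 2.06 ± 0.52 and P4ha1, a collagen prolyl hydroxylase, by 1.39 ± 0.35 (adjusted p = 0.0257 and 0.0262). Stra6, the retinol transporter, read 22.7, 27.9, 23.0, 14.4, 3.26, 2.94 and 3.75 CPM from 0 to 96 h, even within each group, and fell by 2.88 ± 0.30 (adjusted p = 0.00200). Snai1, a repressor of epithelial genes, fell by 1.92 ± 0.37 (adjusted p = 0.0105). Krt19, a keratin, and Nid1, a basement membrane protein, fell by 2.43 ± 0.74 and 0.91 ± 0.28 (adjusted p = 0.0471 and 0.0470). Without the 0, 4 or 10 h library 2 members rose, and without the 72 or 96 h library 3, while 2 fell without the 4, 10 or 72 h library. Plat, P4ha1, Krt19 and Nid1 each lost their call without 4 or 5 of the 6 libraries, with adjusted p up to 0.126, and without 96 h the log2 change was −4.11 for Krt19 and 0.85 for P4ha1.

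**Figure D4:**
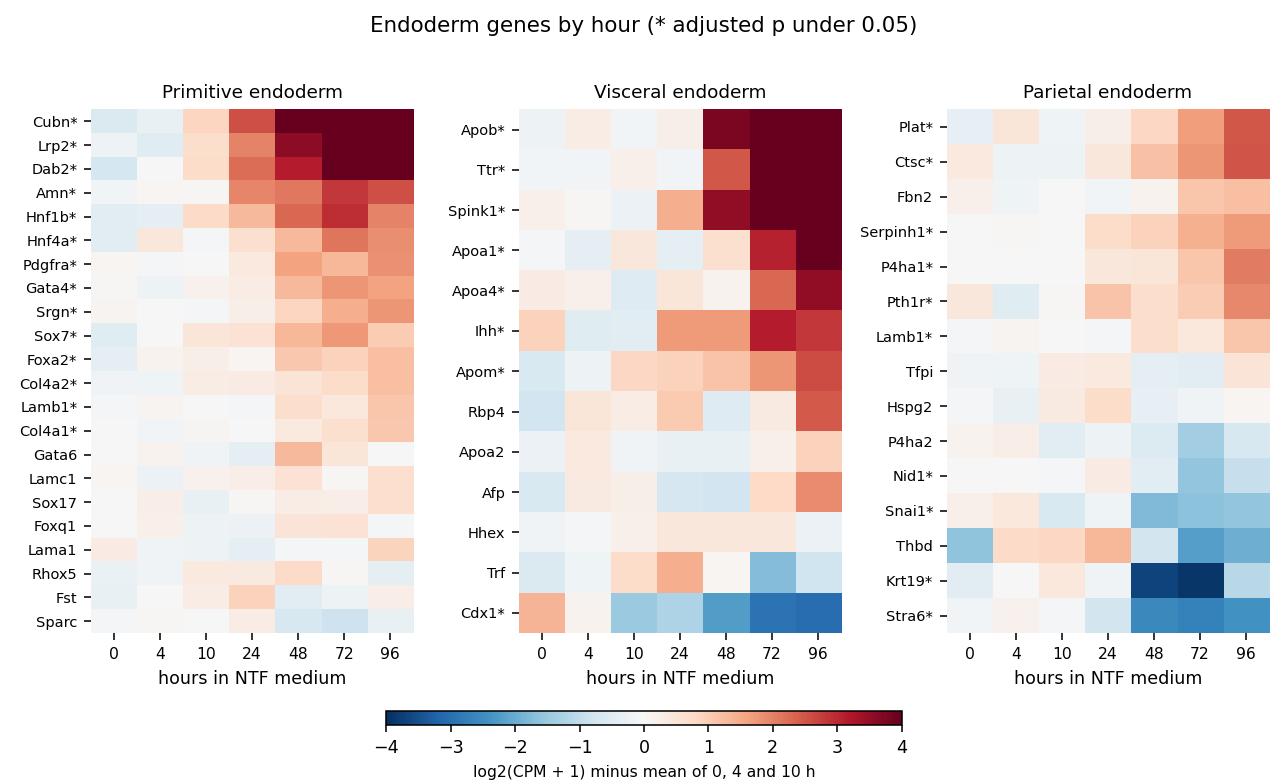
Log2 of CPM plus 1 minus the mean of the 0, 4 and 10 h libraries, for the tested members of the primitive, visceral and parietal endoderm lists at each hour in NTF medium, 1 library an hour. Red is above and blue below the early mean, colours end at 4 in each direction, and an asterisk marks genes that passed. The 3 receptor and adaptor genes Cubn, Lrp2 and Dab2 and the visceral genes Apob, Ttr and Spink1 form the dark red block at 72 and 96 h.

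Trophectoderm, the outer layer of the blastocyst, was represented by 24 tested members, of which 5 rose and 4 fell. Its master factor Cdx2 read 2.66, 2.48, 2.68, 3.40, 1.5, 1.12 and 1.97 CPM from 0 to 96 h (log2 change −0.77 ± 0.50, adjusted p = 0.292). Gata3, another early factor of the layer, read 3.24, 9.75, 4.88, 6.23, 2.88, 1.03 and 1.44 CPM (−1.72 ± 0.60, adjusted p = 0.0707) and passed without the 48 h library (adjusted p = 0.0296). Krt8, a keratin of simple epithelia, read 74.7, 121, 171, 159, 62.1, 48.6 and 198 CPM (−0.25 ± 0.51, adjusted p = 0.751), and without the 96 h library it fell, by 1.14 (adjusted p = 0.0474). Neither Cdx2, Gata3 nor Krt8 was higher in all late libraries. Eomes, another factor of the layer, read 32.9 to 39.7 CPM in the late libraries and 17.8 to 27.9 CPM in the early ones, and Id2, an inhibitor of helix-loop-helix factors, 50.7 to 97.4 CPM late and 13.9 to 41.8 CPM early, without overlap but also without passing (adjusted p = 0.0647 and 0.0834), Id2 passing without 48 h (adjusted p = 0.0449). Fgfr2, a receptor of FGF, rose by 1.27 ± 0.34 (adjusted p = 0.0307), a call lost without 0, 10 or 72 h (adjusted p up to 0.104), and these 3 were picked after their values were seen. Among the members that rose were epithelial junction genes that other epithelia also use: Cldn6, a claudin, by 3.70 ± 0.55, Cldn7, another claudin, by 3.20 ± 0.60, and Dsp, desmoplakin, by 1.51 ± 0.29, with Ascl2, a factor of placental precursors, by 2.03 ± 0.49 (adjusted p = 0.00550 to 0.0216). Tfap2a and Tead4, transcription factors of the layer, fell by 2.79 ± 0.52 and 1.74 ± 0.30 (adjusted p = 0.00961 and 0.00820), and Aqp3, a water channel, by 1.71 ± 0.38 (adjusted p = 0.0161). Without the 4, 10 or 72 h library 3 members rose, and without 4 h 2 fell, while DESeq2 called 7 lower. Cldn7 and Aqp3 lost their call without 4 h (adjusted p up to 0.0614) and Ascl2 without 4, 10 or 72 h (adjusted p up to 0.0897).

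Imprinted genes, which are expressed from 1 parental copy, rose more often than they fell, but not together. Of 23 members tested 8 rose and 2 fell, with a median log2 change of 1.18. H19, a maternally expressed RNA, read 42.9, 23.2, 25.0, 104, 420.3, 483 and 593 CPM from 0 to 96 h and rose by 4.03 ± 0.29 on the log2 scale (adjusted p = 0.00179). Igf2, its paternally expressed neighbour, read 18.2, 31.3, 15.9, 25.1, 21.3, 18.3 and 17.9 CPM, with overlapping groups (−0.18 ± 0.31, adjusted p = 0.712), and was picked after its values were seen. Peg3, a paternally expressed zinc-finger gene, read 16.9, 18.9, 14.2, 29.1, 141, 342 and 407 CPM and rose by 4.16 ± 0.39 (adjusted p = 0.00183). Nnat, neuronatin, rose by 3.57 ± 0.48 (adjusted p = 0.00378). Cdkn1c, a cyclin-dependent kinase inhibitor, read 70.3 and 74.0 CPM at 48 and 72 h and 17 CPM at 96 h, against 4.16 to 5.88 CPM in the early libraries, and rose by 3.51 ± 0.53 (adjusted p = 0.00570). Plagl1, a zinc-finger factor, fell by 2.91 ± 0.48 and Ndn, necdin, by 1.31 ± 0.29 (adjusted p = 0.00717 and 0.0161). Zfp57, which guards methylation at imprinted loci, read 1502, 1430, 1880, 1818, 533, 236 and 56.1 CPM, high through 24 h and lower at every late hour, and fell by 2.55 ± 0.63 (adjusted p = 0.0239). Without the 4 h library 4 members rose and without 72 h 5, while DESeq2 called 13 higher. Ndn did not pass without 4 or 72 h (adjusted p up to 0.0678), nor Zfp57 without 0, 4, 10 or 72 h (adjusted p up to 0.0848).

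Of 12 placental genes tested 4 rose and 1 fell, and 4 of the 20 listed had 0 counts in all 7 libraries. Slc16a3, a lactate exporter that also marks syncytiotrophoblast, read 13.1, 9.75, 9.21, 23.8, 111, 255 and 238 CPM from 0 to 96 h and rose by 4.23 ± 0.36 on the log2 scale (adjusted p = 0.00183). H19 and Cdkn1c, given above, are also on the list, and Plac1, placenta-specific 1, rose by 3.10 ± 0.71 (adjusted p = 0.0180). Psg17, a pregnancy-specific glycoprotein, fell by 4.62 ± 1.07 (adjusted p = 0.0190). Plac1 did not pass without 10 or 72 h, nor Psg17 without 4, 10 or 72 h (adjusted p up to 0.0646).

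Among 16 tested genes of Nodal and BMP signalling, relatives of TGF-beta, 4 rose and 3 fell. Lefty1, a secreted inhibitor of Nodal, read 8.32, 6.97, 4.33, 8.31, 33.7, 95.5 and 124 CPM from 0 to 96 h and rose by 3.70 ± 0.49 on the log2 scale (adjusted p = 0.00351). It increased at each late hour. Its paralogue Lefty2, at 81.9 to 134 CPM in the early libraries, did not pass (−0.21 ± 0.26, adjusted p = 0.596), nor did Nodal (−0.43 ± 0.23, adjusted p = 0.209). Cited1, a transcriptional coactivator, rose by 3.06 ± 0.49 and Skil, a SMAD corepressor, by 2.35 ± 0.23 (adjusted p = 0.00651 and 0.00183), while Smad7, the intracellular inhibitor of the pathway, fell by 2.08 ± 0.26 (adjusted p = 0.00311). Tgfb1i1, a TGF-beta responsive gene of adherent cells, fell by 2.29 ± 0.56 (adjusted p = 0.0228). Without the 4 or 72 h library 1 member fell, and Tgfb1i1 lost its call in those fits (adjusted p up to 0.0908). With the gene length trend removed 7 members rose.

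Of 16 tested Wnt target genes 3 rose and 4 fell. Axin2, the most general of them, read 48.4, 11.5, 21.2, 30.6, 58.1, 13.9 and 14.7 CPM from 0 to 96 h, with overlapping groups (log2 change 0.09 ± 0.64, adjusted p = 0.938). Besides Lef1, Ccnd1, cyclin D1, rose by 1.28 ± 0.23 and Dkk1, a secreted Wnt inhibitor, by 1.56 ± 0.49 (adjusted p = 0.00910 and 0.0499). Apcdd1, a membrane inhibitor of Wnt, fell by 2.48 ± 0.34 (adjusted p = 0.00403), Cdx1 fell as given above, and so did the secreted ligands Wnt3a (−3.67 ± 1.0) and Bmp4 (−2.52 ± 0.77), with adjusted p of 0.0327 and 0.0469. Among 15 tested genes of mesoderm and the primitive streak 2 rose and 3 fell, the last being Wnt3a, Bmp4 and Kdr, a VEGF receptor (−2.85 ± 0.78, adjusted p = 0.0336). Fgf8, the streak ligand, read 0.154, 0, 0.0688, 0, 0.877, 7.49 and 12.0 CPM and rose by 6.11 ± 1.12 (adjusted p = 0.00941), and Lhx1, a LIM homeobox gene, rose by 5.10 ± 0.85 (adjusted p = 0.00749). T, brachyury, read 24.6 CPM at 96 h and at most 1.24 CPM at any other hour, and Wnt3, its inducer, 22.9 CPM at 96 h, 3.23 CPM at 72 h and at most 0.310 CPM before. T did not pass (adjusted p = 0.164, and 0.0384 without 48 h) and Wnt3 was below the filter, so these 2, picked after their values were seen, rest on the 96 h library. Without 72 h 1 Wnt target fell, and without 0, 4 or 10 h 2 did. Wnt3a, Bmp4 and Kdr did not pass without 0, 4, 10 or 72 h, Wnt3a also without 96 h, nor Cdx1 without 72 h, and Dkk1, whose groups overlapped, passed without 96 h alone (adjusted p up to 0.170). Without 48 h the log2 changes of Wnt3a, Bmp4 and Kdr were −5.89, −4.14 and −4.27.

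Targets of YAP, the effector of the Hippo pathway, and immediate early genes fell in part. Of 13 YAP targets 5 fell, all with their lowest hour at 72 h. Ccn2, connective tissue growth factor, read 168, 711, 317, 359, 72.6, 28.7 and 67.1 CPM from 0 to 96 h and fell by 2.83 ± 0.54 on the log2 scale (adjusted p = 0.0101). Amotl2, an angiomotin that restrains YAP, read 312, 473, 401, 295, 126, 93.3 and 122 CPM and fell by 1.79 ± 0.22 (adjusted p = 0.00266). Amot, its relative, which is not on the list, went the other way and read 14.3, 14.9, 19.8, 69.7, 271, 613 and 727 CPM, a rise of 5.03 ± 0.39 (adjusted p = 0.00179). Lats2, a Hippo kinase, fell by 1.90 ± 0.35 (adjusted p = 0.00946). Ccn1, another matricellular protein, fell by 2.30 ± 0.65 (adjusted p = 0.0367), though its 96 h value was above its 0 h value.

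Of 11 immediate early genes tested 6 fell. Egr1 read 5.82, 102, 35.7, 18.5, 2.76, 1.59 and 2.51 CPM from 0 to 96 h, a peak at 4 h, and fell by 4.37 ± 0.87 on the log2 scale (adjusted p = 0.0114). Fos (−3.66 ± 0.84), Fosb (−3.56 ± 0.86) and Nr4a1 (−1.49 ± 0.39), transcription factors induced soon after a stimulus, fell too (adjusted p = 0.0188 to 0.0288), and in Egr1, Fos, Fosb, Nr4a1 and Ccn2 the 4 h library was the highest of the 7. Egr1 and Fos, with Phlda1 (−2.52 ± 0.52, adjusted p = 0.0132) were the 3 that fell among 17 feedback genes of FGF and ERK signalling, whose classical readouts Dusp6 and Spry4 did not pass (adjusted p = 0.237 and 0.234), though Dusp6 did without 0 h (adjusted p = 0.0457). Without 72 h none of the 6 immediate early genes and none of the 3 ERK feedback genes kept its call in edgeR, and without 4 h 1 of each list fell, while DESeq2 with all 6 libraries called 9 and 4 lower. Without 10 h 3 immediate early genes fell, and without 0 h or 48 h 5 ERK feedback genes did. Fos, Fosb and Phlda1 lost their call without 4 or 72 h, Nr4a1 and Ccn1 without 4, 10 or 72 h, and Egr1 without 72 h (adjusted p up to 0.151). Without 4 h Fos changed by −2.43 and Ccn1 by −1.48.

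Fibroblast genes fell in the late libraries as well. Of 16 tested members 11 fell, with a median log2 change of −2.13, and the list summed to 79.1 to 252.4 CPM in the late libraries, 478.1 to 793.5 CPM in the early ones and 936.7 CPM at 24 h. Col1a1, the main collagen of fibroblasts, read 140.2, 206, 88.3, 129.6, 24.5, 5.29 and 5.02 CPM from 0 to 96 h and fell by 3.64 ± 0.64 on the log2 scale (adjusted p = 0.00855). Col6a1 (−3.11 ± 0.53), Col6a3 (−2.98 ± 0.83) and Col3a1 (−2.91 ± 0.71), further collagens, fell likewise (adjusted p = 0.00792 to 0.0353). Of the 18 listed members Lum and Fap were below the filter. The labels used here do not say whether the cultures held feeder cells, and the part of fibroblast RNA in the falls of other genes was not tested. The number that fell was 5, 3, 6, 13, 2 and 8 without 0, 4, 10, 48, 72 and 96 h in turn, Col3a1 losing its call without 0, 4 or 72 h and Col6a3 without any library but that of 48 h (adjusted p up to 0.110), where its log2 change was −4.82.

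Most cell cycle genes tested rose. Of 15 genes of DNA replication 13 rose, with a median log2 change of 0.96, and of 16 genes of mitosis 11 rose, with a median of 1.04. Ccne1, cyclin E1, read 90.2, 60.7, 109, 132, 244, 253 and 165 CPM from 0 to 96 h and rose by 1.35 ± 0.26 on the log2 scale (adjusted p = 0.0109). Rrm1, a ribonucleotide reductase subunit, Cdc6, which loads the replicative helicase, and Mcm7, a subunit of that helicase, rose by 1.27 ± 0.24, 1.20 ± 0.19 and 1.15 ± 0.18 (adjusted p = 0.00681 to 0.0105). Top2a, topoisomerase II, read 255, 284, 515, 567, 964, 906 and 1192 CPM and rose by 1.54 ± 0.28 (adjusted p = 0.00941). Its 10 and 24 h levels were already above that of 0 h. Bub1 and Bub1b, spindle checkpoint kinases, and Ccnb1, cyclin B1, rose by 1.49 ± 0.31, 1.33 ± 0.26 and 1.44 ± 0.19 (adjusted p = 0.00350 to 0.0135). Cdkn1a, the cyclin-dependent kinase inhibitor p21, fell by 0.93 ± 0.21 (adjusted p = 0.0173), and it and Perp (−1.37 ± 0.39, adjusted p = 0.0388) were the 2 of 22 p53 targets that passed. Leaving out 4 h, 7 replication and 3 mitosis genes rose, without 72 h 6 and 6, and without 0 h 10 and 5, Bub1 losing its call without 4 h (adjusted p = 0.0618), Cdkn1a without 0 or 72 h and Perp without 0, 4 or 10 h (adjusted p up to 0.127).

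The largest rises among genes with a mean of at least 5 CPM joined several of these groups. Vrtn, vertnin, a gene known for the number of vertebrae in pigs, read 0, 0.619, 0, 0, 20.5, 84.3 and 62.1 CPM from 0 to 96 h, a rise of 9.48 ± 1.11 on the log2 scale (adjusted p = 0.00253). Tmem54, a transmembrane protein, read 0, 0.155, 0, 1.13, 4.98, 18 and 15.5 CPM, with 1 early count in all. Fndc3c1 read 1.32, 11.2 and 126.3 CPM at 48, 72 and 96 h and at most 0.275 CPM in the early libraries. The 3 differ in when they rose: Vrtn and Tmem54 were highest at 72 h, Fndc3c1 at 96 h. Irs4, an insulin receptor substrate (6.75 ± 1.16), Car4, a membrane carbonic anhydrase (6.41 ± 0.66), Bcl11a, a zinc-finger repressor (5.99 ± 1.0), and Enpp2, which makes lysophosphatidic acid (5.02 ± 0.88), followed (adjusted p = 0.00188 to 0.00821). Fgf5, Apob, Ttr, Spink1, Lef1, Cubn, Apoa1 and Amot, given above, make up the rest of the 15. Fndc3c1 did not pass without 0, 4 or 10 h (adjusted p up to 0.0716). Early counts of these genes were near 0, and leaving out 1 library moved the log2 change of Vrtn to 13.71 (without 4 h), that of Irs4 to 11.60 (without 10 h) and that of Fndc3c1 to 5.09 (without 96 h).

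The largest falls were led by Vsx1, a homeobox gene, which read 14.1, 46.0, 5.4, 5.86, 0.251, 0.117 and 0.0669 CPM from 0 to 96 h, a change of −7.17 ± 0.94 on the log2 scale (adjusted p = 0.00350). Ly6a, which encodes the surface antigen Sca-1, read 623, 799.5, 766, 477, 24.6, 1.12 and 0.401 CPM. It was high in every early library and close to 0 at 72 and 96 h, and it fell by 6.39 ± 1.31 (adjusted p = 0.0127). Its neighbour in the family, Ly6c1, fell by 6.28 ± 1.0 (adjusted p = 0.00651). Akr1cl, an aldo-keto reductase, read 44.0, 60.5, 38.0, 9.45, 1.13, 0.264 and 0.0669 CPM and fell by 6.59 ± 0.76 (adjusted p = 0.00253). Slc6a12, a betaine transporter, and Slc6a7, a proline transporter, changed by −7.02 ± 1.09 and −5.56 ± 0.86 (both adjusted p = 0.00602). Aspa, Nppb, Lax1, Mgat4c, Mroh4, Abcc3 and Saa3, with Pramel6, followed, with log2 changes of −5.99 to −4.83. Without 4 h Ly6a and Lax1 narrowly missed the threshold (adjusted p = 0.0515 and 0.0512), and without 48 h the log2 change of Ly6a was −9.88.

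The late minus early change in NTF was set against the change in SFH over 12 libraries, where SFH libraries held 16230557 to 21761607 counts. Of 15819 genes 8 differed between media, or 0.0506%, 1 with the higher change in NTF and 7 with the lower, while 3517 genes changed in NTF and 3158 in SFH in the same fit. The media were sampled in separate courses, so medium and course cannot be told apart. Foxq1, a forkhead gene of the primitive endoderm list, read 45.2, 51.4, 39.3, 65.6, 67.4 and 41.5 CPM in NTF at 0, 4, 10, 48, 72 and 96 h, against 8.05, 7.99, 6.41, 76.5, 103.5 and 117.9 CPM in SFH at 0, 4, 12, 48, 72 and 96 h. The early levels differed more between the courses than the late ones, and the change was 0.36 in NTF and 3.73 in SFH on the log2 scale, a difference of −3.37 ± 0.33 (adjusted p = 0.00234). Foxa2 showed a like picture, with 5.33, 7.76, 8.80, 16.3, 14.6 and 17.4 CPM in NTF, against 1.07, 0.841, 0.458, 14.2, 21.9 and 25.6 CPM in SFH, a difference of −3.54 ± 0.51. Gata4 changed by 1.56 in NTF and by 4.17 in SFH, a difference of −2.61 ± 0.39 (both adjusted p = 0.0363). In all 3 the early NTF libraries lay above the early SFH libraries, already at 0 h.

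The other 5 genes were of several kinds, and they too differed between the courses at 0 h. Nostrin (20.1 against 2.73 CPM), Serpina3m (31.6 against 1.17 CPM) and Lrpap1 (448 against 161 CPM) started higher in NTF than in SFH. Lrp1 (125 against 389 CPM) and Rn45s (4015 against 9666 CPM) started lower. Apart from Rn45s, their late levels lay closer together. Nostrin, which regulates nitric oxide synthase, changed by −0.43 in NTF and by 3.17 in SFH on the log2 scale, a difference of −3.60 ± 0.57 (adjusted p = 0.0488). Serpina3m, a secreted protease inhibitor, changed by −2.93 in NTF and by 0.77 in SFH, a difference of −3.70 ± 0.55 (adjusted p = 0.0363). Lrp1, an endocytic receptor, read 60.8 to 74.9 CPM late and 118.4 to 125.6 CPM early in NTF, against 66.0 to 70.8 CPM late and 293.2 to 388.5 CPM early in SFH. It fell in both media and by more in SFH, a difference of 1.48 ± 0.22 (adjusted p = 0.0363). Lrpap1, its chaperone, changed by 0.03 in NTF and by 1.64 in SFH, a difference of −1.61 ± 0.24 (adjusted p = 0.0364). Rn45s, ribosomal RNA left in the libraries, changed by −2.01 in NTF and by −0.29 in SFH, a difference of −1.73 ± 0.25 (adjusted p = 0.0363). The median change of the primitive endoderm list was 0.99 in NTF and 3.18 in SFH, with 3 of its 22 members (Foxq1, Foxa2 and Gata4) among the 8. The 2-cell list had medians of −2.51 in NTF and −1.34 in SFH, and the formative list 3.32 in NTF and 2.38 in SFH. No member of these 2 lists was among the 8 that edgeR called. In all 1237 genes differed at an unadjusted p under 0.05, and DESeq2 called 114. With the hour as a block over the 5 hours that both courses share, 135 genes differed, 62 with the higher change in NTF and 73 with the lower, against 2 over the same libraries without the block. Leaving out 1 of the 12 libraries gave 1 to 17 calls, 17 without 48 h of SFH and a single call without each of 7 libraries, and Foxq1 was called in each of those fits.

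**Figure D5:**
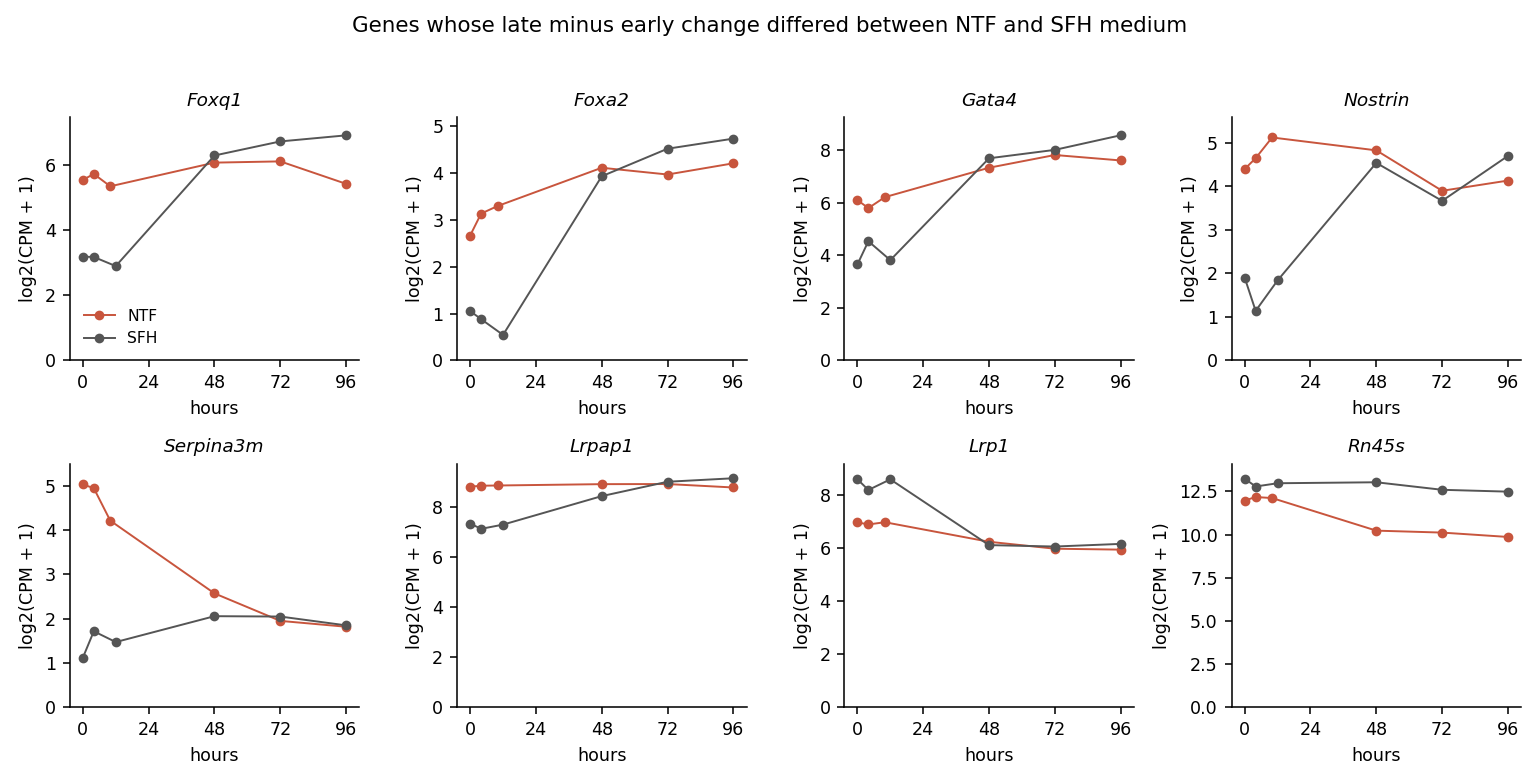
Level of the 8 genes whose late minus early change differed between media, as log2 of CPM plus 1 against hours, in NTF (red) and SFH (grey), 1 library for each point and 12 libraries in all. Foxq1, Foxa2, Gata4 and Lrpap1 start higher in NTF and end at or above the NTF level in SFH, whereas Rn45s is higher in SFH at every hour. Nostrin and Serpina3m also start higher in NTF, and Lrp1 starts higher in SFH.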

How the data were processed

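Bulk RNA-seq counts per gene of the NTF and SFH courses were used. Per the labels, total RNA went into a VAHTS Universal V8 library kit. The authors deposited whole-number counts per gene, and the submitters' processing notes name Trimmomatic, HISAT2 and featureCounts and the builds mm10 and hg38, with no role or version. Whether counting used strand is not given in the sources used here, so genes that overlap an antisense partner are uncertain.

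From the NTF table, 26 rows whose names had become dates were left out. Genes were kept by edgeR's filterByExpr, libraries were scaled by TMM, and late hours (n = 3) were compared with early hours (n = 3) by edgeR 4.0.16's quasi-likelihood test in R 4.3.3, with Benjamini-Hochberg adjusted p over all genes tested. Standard errors were taken as the absolute log2 change over the square root of F. CPM use the TMM-scaled library sizes, and those beside SFH values were scaled over the 12 libraries of that fit. No label says that hours come from different cultures, and the p-values therefore cover only how much these libraries scatter, which may be technical. The media were compared by an interaction term. On simulated data the late against early fit recovered 18% of 2-fold and 76% of 4-fold changes (100 genes each) with 11 false calls in 15497 genes, and the interaction 6% and 64% with 3 false calls in 15819 genes. Only those genes were changed, all with a mean of at least 5 CPM, and libraries were drawn independently. In the data 20.7% of genes passed late against early and the spread holds change over time, so these rates may not carry over.

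Alternatives were other size factors, other filters on low counts, DESeq2 1.42.0, counts halved because most low counts were even, the 24 h library added, a trend in hours, removal of the gene length trend, and leaving out each library. Thinning to 1 depth and the shared hours without a block were added after seeing the data. The 34 gene lists and their members were chosen with earlier results of these data known. The rule for naming genes was a fixed set of markers, for each list up to 4 members a direction that passed, ranked by size of change, and, over all genes averaging 5 CPM or more, the 15 that rose and the 15 that fell furthest, without gene models. Names outside it (Otx2, Pou3f1, Tcstv3, AF067061, Hmgcs1, Mvk, Vegfa, Car9, Epcam, Igf2, Dusp6, Spry4, Afp, T, Wnt3, Eomes, Id2, Fgfr2, Rn45s, Lrpap1 and members named as below the filter) were picked after their values were seen, and a few genes the rule would name are not reported here, though list counts include them. Promoters came from RefSeq tables of GRCm38.p6, which held 12 of 20 cholesterol and 19 of 20 glycolysis and hypoxia genes.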

Additional observations from a re-analysis of the deposited data

Results flagged for a closer look

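In 8 genes the late minus early change differed between the media by the test of the difference itself. On the log2 scale the change in NTF minus the change in SFH was −3.37 for Foxq1, −3.54 for Foxa2, −2.61 for Gata4, −3.70 for Serpina3m, −3.60 for Nostrin, −1.73 for Rn45s, −1.61 for Lrpap1 and 1.48 for Lrp1. Foxq1 was called in every fit that left out a library, and the other 7 each lost their call in 10 or 11 of the 12. The courses also differed at 0 h in each of these 8 genes, and the part of that unequal start in the changes was not tested.

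Signal that no comparison of the report uses appeared in the 24 h library. Of 24958 genes, 43 stood there at 5 CPM or more and at least 2-fold above all 6 other hours, and 7 stood as far below. The same count was not made for any other hour, so whether it is unusual was not tested. Rn45s, ribosomal RNA, read 16839 CPM at 24 h, against 1127 to 1210 CPM at 48 and 72 h, 962 CPM at 96 h and 4064 to 4791 CPM in the early libraries. Dkk2, a secreted Wnt modulator, read 12.8 CPM at 24 h and at most 1.06 CPM at any other hour, and Grem1, a secreted BMP inhibitor, 40.4 CPM and at most 8.42 CPM. Rmrp and Rpph1, non-coding RNAs of RNA-cutting enzymes, read 15.1 and 12.8 CPM at 24 h and at most 2.13 and 2.17 CPM elsewhere. Among the 43 were genes of fibroblasts and contractile cells, such as Acta2, a smooth muscle actin (235.2 CPM at 24 h and at most 82.5 CPM elsewhere), Tagln, transgelin (283 and at most 133 CPM), Timp1, a protease inhibitor (230.7 and at most 90.4 CPM), and Col8a1, a collagen (25.5 and at most 6.66 CPM). The fibroblast list summed to 936.7 CPM at 24 h, against 79.1 to 252.4 CPM in the late libraries and 478.1 to 793.5 CPM in the early ones. Acta2 itself supplied 235.2 CPM of the 24 h sum, and the other members were mixed. Col1a2 (100.3 CPM), Col5a2 (127.1 CPM), Lox (99.0 CPM), Fbn1 (45.3 CPM), Prrx1 (40.2 CPM), Thy1 (29.1 CPM), Dcn (4.91 CPM) and Twist2 (3.78 CPM) were highest at 24 h. Col1a1 (129.6 CPM) and Col5a1 (74.8 CPM) were below their 4 h values of 206.4 and 91.2 CPM. Col3a1, Col6a1, Col6a3, Postn and Twist1 were below their 4 h values too. This library is also the shallowest, and the part of fibroblast RNA, depth and RNA quality in these values was not tested.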

How the results depend on the processing

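The late against early counts stayed within 1.5 times under other size factors, 2 other filters on low counts, DESeq2, halved counts, both uses of the 24 h library, removal of the length trend and thinning to 1 depth, with 2785 to 4454 genes passing. A straight trend in hours called 633 genes, 410 higher and 223 lower, which is 64.8% higher against 50.8% in the comparison of groups. Removing the length trend moved the median change of all genes from −0.01 to 0.13 on the log2 scale and called 1964 higher and 1425 lower. Leaving out 1 library gave 1073 to 3893 genes, 593 to 1847 higher and 480 to 2046 lower, fewest without 72 h and most without 48 h, and no gene called in both fits turned its direction. Of 165 genes followed one by one that passed, 94 kept their call without each library, and 63 lost it without 4 h, 58 without 72 h and 6 without 48 h. These genes were chosen for the text, many by the size of their change, and do not stand for all calls. Of all 3210 genes that passed, 1147 passed again without 4 h and 1071 without 72 h. Between media 20 genes passed with no filter on low counts (4 higher in NTF, 16 lower), 114 in DESeq2 (42 and 72) and 107 with all SFH hours (51 and 56), and leaving out 1 library gave 1 to 17 (0 to 1 higher, 1 to 16 lower). With the hour as a replicate block over the 5 shared hours 135 passed (62 higher, 73 lower), and over the same hours without the block 2 did (0 higher, 2 lower). Deviations of same-hour libraries from their group means correlated at 0.04 (4 h) to 0.56 (48 h), and each library correlated best with its own hour; no label says that an hour of both courses shared a batch or day. The cause of these shifts was not tested. Depth limits the 4 and 24 h libraries, which held 5774059 and 5099067 counts.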

Other observations

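Epithelial genes not yet described rose with the claudins. Of 16 epithelial genes 7 rose and 1 fell. Epcam, an adhesion molecule of epithelia, read 71.1, 80.0, 110.2, 179.3, 338, 302 and 308 CPM at 0, 4, 10, 24, 48, 72 and 96 h, a log2 change of 1.86 ± 0.21 (edgeR adjusted p = 0.00242), and was picked after its values were seen. Esrp1, a splicing regulator of epithelial cells, rose by 3.53 ± 0.40 and Cgn, a tight junction protein, by 1.95 ± 0.42 (adjusted p = 0.00246 and 0.0148). Of 12 mesenchymal genes 2 fell, Snai1 and Zeb1, both repressors of epithelial genes, the second by 2.20 ± 0.67 (adjusted p = 0.0464). Without the 4 h library 3 epithelial genes rose and without 72 h 4, and Cgn and Zeb1 lost their call in both fits, Zeb1 also without 0, 10 or 96 h (adjusted p up to 0.130), and without 48 h Zeb1 changed by −3.58.

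The remaining lists are given by their counts, to be set against 20.7% of all genes tested. Of 16 lysosome genes 4 rose, all highest at 96 h, and 1 fell. The proteases Ctsz and Ctsl were among those that rose, Ctsz by 1.61 ± 0.25 on the log2 scale and Ctsl by 1.21 ± 0.26 (adjusted p = 0.00602 and 0.0140). Of 16 genes of the integrated stress response 2 rose and 4 fell, with Phgdh, which opens serine synthesis, up by 2.29 ± 0.38 and Ddit3, a stress-induced factor, down by 1.38 ± 0.37 (adjusted p = 0.00717 and 0.0324). Of 12 chaperone genes 3 rose, led by Hspd1 at 1.31 ± 0.23, and of 12 interferon-responsive genes 3, of which Bst2 at 1.76 ± 0.30 had the smallest adjusted p (0.00810 and 0.00767). Of 29 spliceosome genes 1 rose, Prpf8, by 1.25 ± 0.20 (adjusted p = 0.00666). Of 11 genes of DNA methylation 4 rose, Dnmt3a and Dnmt3b by most, and 1 fell, Zfp57, with 2 rising without 0, 4 or 72 h. Of 12 G1 cyclins and inhibitors 3 rose and 1 fell. Of 12 germline genes 1 rose and 1 fell, of 10 neural genes 2 fell, and of 11 blood and endothelial genes 1 fell. In the Myc family 1 of 9 genes had an unadjusted p under 0.05, Mycn (1.06 ± 0.35, adjusted p = 0.0598), which passed without 48 or 96 h, and DESeq2 called 1. Without the 4 h library 1 lysosome, 1 chaperone and 1 interferon gene rose, likewise without 72 h, and without 4 or 10 h none of the 4 stress genes that fell kept its call, Ddit3 losing it also without 0 or 96 h (adjusted p up to 0.119). With the gene length trend removed none of the stress genes fell. Ctsl lost its call without 4 or 72 h (adjusted p up to 0.0586).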
